A study of Mus musculus with 6 samples.

Results

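The lysyl oxidases, the tissue inhibitors of metalloproteinases and the metalloproteinase pair Mmp2 and Mmp14 form the set described here, 10 genes that crosslink or remodel the extracellular matrix. The set holds Lox, Loxl1, Loxl2, Loxl3, Loxl4, Timp1, Timp2, Timp3, Mmp2 and Mmp14. Every gene probe annotated with a RefSeq accession of these genes was taken, which gave 16 probes for the 10 genes, out of 39429 gene probes and 20659 gene symbols on the array. Loxl2 had 3 probes, Lox, Loxl1, Loxl4 and Timp2 had 2 each, and the other 5 genes had 1. All 16 probes stood well above background in both replicates of 1 group or more, and 14 of them did so on all 6 arrays.

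Gene expression was measured on 6 one-colour arrays hybridised with Cy3-labelled RNA, 2 each from shTug1 clone 2, shTug1 clone 3 and shControl. All cells were podocytes of the mouse, epithelial cells that enclose the capillaries of the glomerulus, immortalised with a temperature-sensitive SV40 T antigen, grown at 33 °C and differentiated at 37 °C for 10 days. The shTug1 cells carried a lentiviral hairpin against the long noncoding RNA Tug1 and the shControl cells a scrambled hairpin, in the same vector. Each shTug1 group was 1 clone, so a clone's own traits and its hairpin cannot be told apart, and the labels call each group's 2 arrays biological replicates. The comparison asks how podocytes labelled with the Tug1 hairpin differ from control podocytes.

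Lysyl oxidases are copper-dependent amine oxidases that convert lysines of collagen and elastin into reactive aldehydes, from which covalent crosslinks form. Matrix metalloproteinases cleave collagens and other matrix proteins, and the TIMP proteins bind their catalytic site and block it. Podocytes build the glomerular basement membrane together with the endothelium, and its type IV collagen network is a substrate of both enzyme classes.

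Signals are given as log2 of the processed intensity relative to the 75th percentile of each array, and "passed" means an adjusted p under 0.05 in limma, after Benjamini-Hochberg adjustment over 25545 probes. That percentile was 1055 and 949.3 in clone 2, 569.2 and 831.6 in clone 3 and 324.3 and 363.3 in shControl, and the median probe lay at −0.57 for the mean of the clones against shControl. By the scan identifier in the file headers, all shTug1 arrays shared 1 slide and the shControl arrays another. Slide and hairpin therefore cannot be told apart wherever shControl is compared. Between 58.2% and 68.0% of probes were well above background. Replicates correlated at 0.981 in clone 2, 0.989 in clone 3 and 0.961 in shControl, and the median SD of a probe was 0.16 in clone 2, 0.17 in clone 3 and 0.51 in shControl. limma took 1 spread per probe from all 6 arrays. Where the shControl arrays lay far apart, the SE and adjusted p against shControl can therefore be too small. The Tug1 probe measured on all arrays (A_52_P599162) read −1.86 and −1.88 in clone 2, −3.10 and −3.23 in clone 3 and −2.88 and −2.49 in shControl. On a second probe, A_51_P119401, Tug1 was detected on 2 of 2 clone 2 arrays, 1 of 2 clone 3 arrays and 0 of 2 shControl arrays. Tug1 was thus not lower on the arrays labelled clone 2, and groups are named by their labels. Of 10 podocyte markers, 8 or 9 were well above background on every array, with a summed scaled signal of 18.2 on both arrays of clone 2, at most 16.4 in clone 3 and 31.6 to 33.0 in shControl. The summed scaled signal of 10 mesangial and stromal markers was 387 to 410 in clone 2, 412 to 577 in clone 3 and 1023 to 1065 in shControl, with 6 to 8 of the 10 well above background and Des and Pdgfra on no array. That of 11 tubular and parietal markers was 34.6 to 36.3 in clone 2, 31.8 to 54.7 in clone 3 and 107 to 110 in shControl, with 7 to 9 well above background. That of 6 immune markers was 1.84 to 1.90 in clone 2, 3.24 to 3.54 in clone 3 and 8.09 to 20.5 in shControl, with 4 or 5 well above background. That of 7 endothelial markers was 2.66 to 3.25 in clone 2, 2.82 to 3.28 in clone 3 and 5.92 to 6.03 in shControl, with 4 or 5 well above background. Slc12a1, Lyz2, Emcn and Tek were well above background on no array. Every marker list thus had a lower scaled sum on the shTug1 arrays than in shControl. These sums are relative to the 75th percentile of each array, which was higher on every shTug1 array, and the part of this scaling in them was not tested. The part of these cell types in the results was not tested either, and in bulk RNA fewer cells of a type and less RNA per cell cannot be told apart.

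Across the set, 7 of 16 probes rose on the arrays labelled shTug1 against shControl, 2 fell and 7 did not pass, while 11.8% of all probes tested rose and 27.6% fell. The 7 rises belonged to Lox, Loxl1, Loxl2, Loxl4 (both probes), Timp3 and Mmp2, and the falls to Loxl3 and Mmp14. All 4 shTug1 arrays lay above both shControl arrays for 10 of the 16 probes and below both for 2, against 14.0% and 40.3% of all probes. The rises of Loxl2 and Mmp2 came from probes not well above background in shControl, which entered the test only through the shTug1 arrays. Among the 14 probes well above background on all 6 arrays, 5 rose and 2 fell, against 8.26% and 31.0% of the 19799 such probes of the array. The median log2 fold change was 0.77 over those 14 probes and −0.65 over all probes detected on the 6 arrays. Which probes rise or fall on this scale depends on the scaling: after quantile normalization 3395 of all probes rose and 3674 fell, against 3009 and 7045 here, and 9 of the 16 rose and 1 fell.

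**Figure D1:**
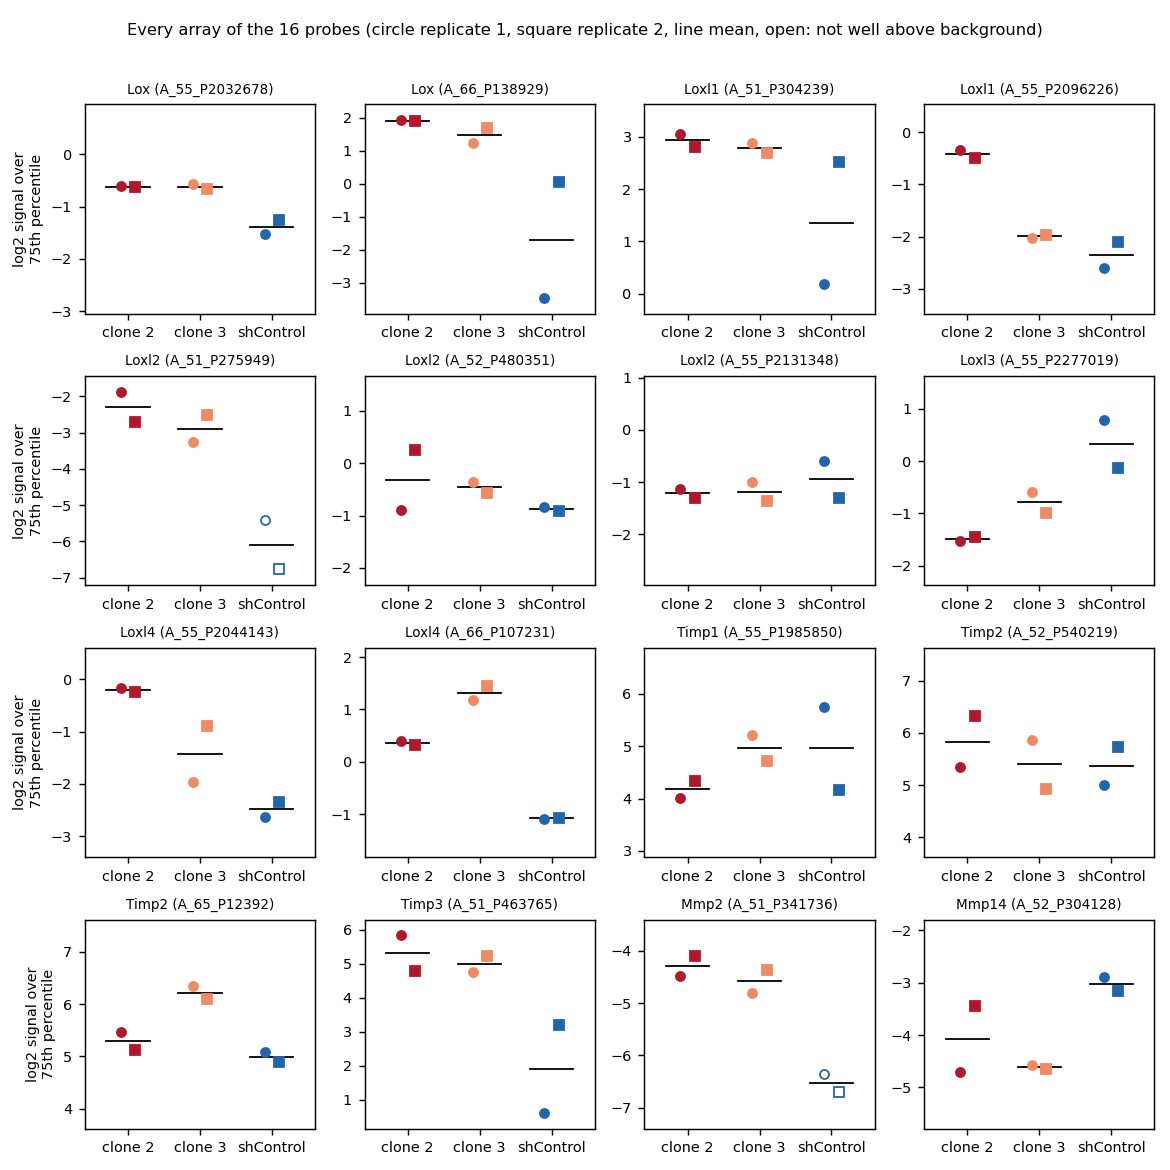
Log2 signal over the 75th percentile of each array (y axis) for the 16 probes, in shTug1 clone 2, shTug1 clone 3 and shControl (x axis). Circles are replicate 1, squares replicate 2, black lines group means, and open symbols mark groups in which the probe was not well above background; the shTug1 arrays lie above both shControl arrays for Timp3 and both Loxl4 probes, and below both for Loxl3 and Mmp14.

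Lox encodes lysyl oxidase, the founding member of the family, which is secreted as a proenzyme and crosslinks fibrillar collagen and elastin. Its probe A_66_P138929 read 1.94 and 1.89 in clone 2, 1.25 and 1.71 in clone 3 and −3.46 and 0.06 in shControl. The shTug1 arrays all lay above both shControl arrays, and the shControl arrays were themselves 3.53 apart, a gap larger than that of 99.4% of probes. As deposited intensities these were 4039 and 3525 in clone 2, 1353 and 2713 in clone 3 and 29.4 and 380 in shControl. The SD of the log2 readings was 2.49 in shControl, 0.03 in clone 2 and 0.32 in clone 3, and limma pools these groups. Its SE and adjusted p can thus be too small here. Lox on this probe rose by 3.40 on the log2 scale (SE 0.84, adjusted p = 0.022, 10.5-fold). The value was 1.63 without shControl replicate 1 and 5.16 without shControl replicate 2, and its call ended without shTug1 clone 3 replicate 1 (adjusted p = 0.0577) or 2 (0.0756, from 0.0029 to 0.0756 over all settings).

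The other Lox probe, A_55_P2032678, varied far less. It read −0.61 and −0.63 in clone 2, −0.57 and −0.66 in clone 3 and −1.52 and −1.26 in shControl, so the shTug1 arrays again lay above both shControl arrays, while the clones overlapped. The difference of 0.77 (SE 0.28, 95% interval 0.11 to 1.44) did not pass (adjusted p = 0.0632). It did pass with quantile normalization (0.80, adjusted p = 0.0458), the deposited series values (0.83, adjusted p = 0.0327), scaling to the median (1.07, adjusted p = 0.0303) and the filter on all 6 arrays (adjusted p = 0.048). Without shControl replicate 2 the difference was 0.90. The probes thus gave the same direction for Lox and sizes of 1.71-fold and 10.5-fold.

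Loxl1, the family member needed for elastic fibre maintenance in mice, also had probes that disagreed in size and in the clones. Probe A_55_P2096226 read −0.34 and −0.49 in clone 2, −2.02 and −1.96 in clone 3 and −2.60 and −2.09 in shControl. Clone 2 stood clear of the other groups, while clone 3 lay just above the higher shControl array. The mean of the clones rose by 1.15 (SE 0.30, adjusted p = 0.0256, 2.21-fold), made up of 1.93 in clone 2 (adjusted p = 0.0118) and 0.36 in clone 3 (adjusted p = 0.484). That call ended without either array of clone 2 (adjusted p = 0.0765 and 0.0587) or of clone 3 (0.0824 and 0.099), and the value was 0.57 with normexp correction. The difference between the clones was −1.57 (SE 0.35, 95% interval −2.39 to −0.76), the largest among the 16 probes, and did not pass over all probes (adjusted p = 0.0819).

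The other Loxl1 probe, A_51_P304239, read 3.05 and 2.81 in clone 2, 2.88 and 2.69 in clone 3 and 0.19 and 2.51 in shControl. The 4 shTug1 arrays were within 0.37 of each other, and the shControl arrays were 2.33 apart. Its log2 fold change of 1.51 (SE 0.59) did not pass (adjusted p = 0.0751). It was 0.34 without shControl replicate 1 and 2.67 without shControl replicate 2, fits in which no spread of shControl remains. The probe passed with normexp correction (adjusted p = 0.0186) and with the filter on all 6 arrays (adjusted p = 0.0422).

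**Figure D2:**
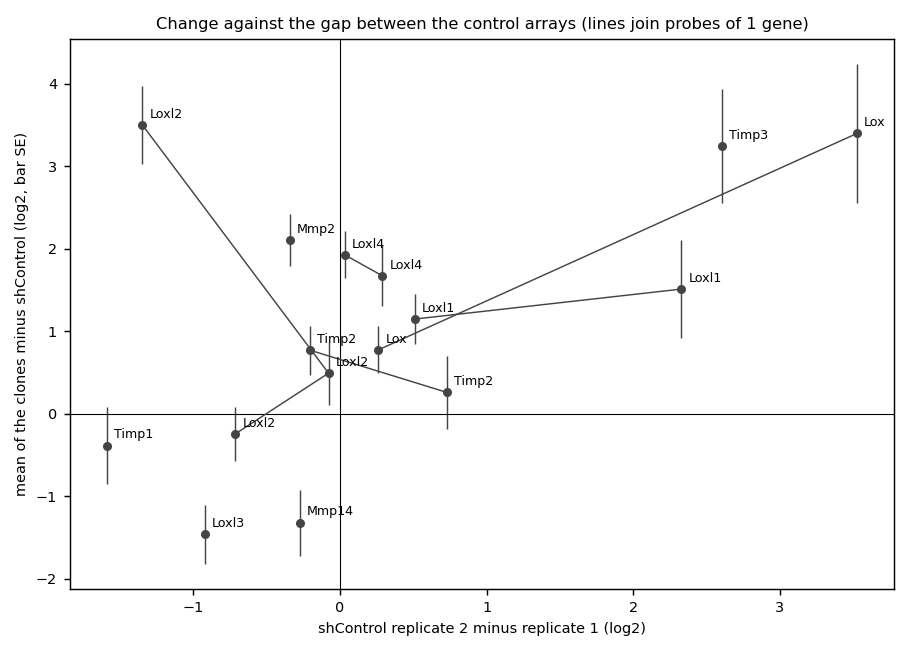
Log2 fold change of the mean of the clones against shControl (y axis, bars are SE) against the gap between the shControl arrays (x axis, replicate 2 minus replicate 1, log2) for the 16 probes, with lines joining probes of 1 gene. Lox A_66_P138929, Timp3 and Loxl1 A_51_P304239 have the widest gaps, from 2.33 to 3.53, while both Loxl4 probes have gaps of 0.29 or less.

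Loxl2, Loxl3 and Loxl4 share scavenger receptor domains that Lox and Loxl1 lack. Loxl2, which crosslinks type IV collagen of basement membranes, gave 3 different readings. Its probe A_51_P275949 read −1.89 and −2.71 in clone 2 and −3.27 and −2.52 in clone 3, against −5.42 and −6.77 in shControl, where it was not well above background. On this scale it was at least 3.29-fold higher on the shTug1 arrays, at least 4.04-fold in clone 2 and at least 2.67-fold in clone 3. The adjusted p of 0.00806 in limma belongs to the log2 difference of 3.50 from the undetected shControl readings, not to these bounds. For these bounds a shControl array's reading was replaced by the dimmest detected probe of that array wherever that probe was brighter. They hold under that replacement only. With normexp correction the value was 0.52 on the log2 scale (adjusted p = 0.089), and 0.69 in clone 2 and 0.35 in clone 3, all below these bounds, so the size of this difference depends on how background is handled. That correction adds an offset of 50 to every intensity before scaling, and the shControl intensities of this probe were 7.58 and 3.34.

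The other Loxl2 probes were well above background on all arrays and did not pass. A_52_P480351 read −0.89 and 0.25 in clone 2, −0.36 and −0.56 in clone 3 and −0.84 and −0.92 in shControl, with a log2 fold change of 0.49 (95% interval −0.39 to 1.37, adjusted p = 0.312). A_55_P2131348 read −1.13 and −1.29 in clone 2, −1.01 and −1.36 in clone 3 and −0.59 and −1.31 in shControl, with −0.25 (95% interval −1.02 to 0.52, adjusted p = 0.552). On both probes the shTug1 and shControl arrays overlapped, and the direction of the second turned with scaling to the median (0.05) and without shControl replicate 1 (0.11). No direction can therefore be given for Loxl2 across its probes.

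Loxl3, whose loss in mice disturbs palate and spine development, was the only lysyl oxidase that fell. It read −1.53 and −1.46 in clone 2, −0.59 and −0.98 in clone 3 and 0.78 and −0.14 in shControl. The groups were ordered clone 2, clone 3, shControl from low to high with no overlap. Loxl3 fell by 1.46 (SE 0.36, adjusted p = 0.0215, 2.76-fold), which is −0.89 relative to the median probe. Its deposited intensities were 365 and 346 in clone 2, 379 and 421 in clone 3 and 558 and 330 in shControl, so before scaling the groups overlapped. Its call ended without shControl replicate 1 (adjusted p = 0.0502) and without shTug1 clone 3 replicate 1 (adjusted p = 0.0606) or 2 (0.0868), and it held in the series table's values (−1.38) and after quantile normalization (−1.41).

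Loxl4 rose on both of its probes, and its control arrays were close together. Probe A_66_P107231 read 0.41 and 0.32 in clone 2, 1.18 and 1.45 in clone 3 and −1.10 and −1.07 in shControl. Probe A_55_P2044143 read −0.17 and −0.25 in clone 2, −1.96 and −0.90 in clone 3 and −2.63 and −2.34 in shControl. All shTug1 arrays were above both shControl arrays on either probe. The log2 fold changes were 1.92 (SE 0.29, adjusted p = 0.00946, 3.79-fold) and 1.67 (SE 0.37, adjusted p = 0.0181, 3.18-fold). The call of A_66_P107231 ended without shTug1 clone 3 replicate 2 (adjusted p = 0.0519). That of A_55_P2044143 ended without shControl replicate 1 (0.0675) or shTug1 clone 3 replicate 2 (0.0713), and its value was 0.97 with normexp correction.

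The order of the clones turned between the Loxl4 probes. On A_66_P107231 clone 3 was above clone 2 by 0.95 (95% interval 0.19 to 1.72), and on A_55_P2044143 it was below by 1.22, a difference of −1.22 (95% interval −2.22 to −0.22). Neither passed over all probes (adjusted p = 0.298 and 0.306). Against shControl, A_66_P107231 rose by 1.45 in clone 2 (adjusted p = 0.0173) and 2.40 in clone 3 (adjusted p = 0.0259). A_55_P2044143 rose by 2.28 in clone 2 (adjusted p = 0.0127) and stood at 1.06 in clone 3 (adjusted p = 0.127).

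The upstream sequences of Loxl4, Timp3 and Mmp14 are shown because these genes differed from shControl on every probe they have on the array, in opposite directions. RefSeq promoter entries were found for 5 of the 10 genes, Loxl4, Timp1, Timp2, Timp3 and Mmp14, on GRCm38.p6, and the 250 bases before the annotated start are printed 5′ to 3′ on the gene's strand. Capitals mark matches, on either strand, to a GC box (GGGCGG) or to the core of the hypoxia response element (ACGTG).
Loxl4 (chr19:42612807-42613056, minus strand): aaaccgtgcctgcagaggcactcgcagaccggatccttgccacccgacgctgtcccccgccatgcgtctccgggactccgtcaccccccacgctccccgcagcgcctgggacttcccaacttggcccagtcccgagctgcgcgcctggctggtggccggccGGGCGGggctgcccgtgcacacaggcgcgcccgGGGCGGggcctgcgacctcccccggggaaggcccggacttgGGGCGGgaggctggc
Timp3 (chr10:86300162-86300411, plus strand): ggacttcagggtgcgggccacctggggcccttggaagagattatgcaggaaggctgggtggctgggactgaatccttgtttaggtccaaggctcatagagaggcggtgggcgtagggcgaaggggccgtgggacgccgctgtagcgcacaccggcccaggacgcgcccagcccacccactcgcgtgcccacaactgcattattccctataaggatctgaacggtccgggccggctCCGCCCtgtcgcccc
Mmp14 (chr14:54431348-54431597, plus strand): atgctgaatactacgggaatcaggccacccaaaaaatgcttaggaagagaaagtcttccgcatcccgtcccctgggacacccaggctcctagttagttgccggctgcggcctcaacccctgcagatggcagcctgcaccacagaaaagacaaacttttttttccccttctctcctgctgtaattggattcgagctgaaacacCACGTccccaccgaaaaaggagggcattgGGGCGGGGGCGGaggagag

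The Loxl4 window held 3 GC boxes, 89, 56 and 15 bases before the start, and no ACGTG. The Timp3 window held 1 GC box, 15 bases before the start, and the Mmp14 window held 2 adjoining ones at 19 and 13 bases and an ACGTG core at 48. Each of the 5 windows held a GC box, as did 32.7% of 32851 mouse promoters of the same length. An ACGTG core was in those of Timp1 and Mmp14, and in 16.6% of all. Neither the AP-1 motif TGANTCA (6.75% of all) nor the TATA box TATAAA (12.4%) was in any of the 5. The GC content was 76.0% for Loxl4, 65.6% for Timp3, 68.0% for Timp2, 55.2% for Mmp14 and 54.4% for Timp1, against a median of 52.4% over all promoters. These matches describe the letters only. GC boxes lay in the windows of Loxl4 and Timp3, which rose, and of Mmp14, which fell. Among these genes only Mmp14 held an ACGTG core, which the window of Timp1, a gene that did not pass, held as well. The part of either match in the changes was not tested.

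Timp3 encodes the inhibitor that binds to the extracellular matrix itself and also blocks ADAM17 and several ADAMTS proteases. It read 5.84 and 4.77 in clone 2, 4.76 and 5.21 in clone 3 and 0.60 and 3.21 in shControl. All shTug1 arrays were above both shControl arrays, the nearest pair being 1.56 apart, and the gap between the shControl arrays exceeded that of 97.8% of probes. The deposited intensities were 60232 and 25967 in clone 2, 15459 and 30852 in clone 3 and 492 and 3352 in shControl. The SD of the log2 readings was 1.84 in shControl, 0.75 in clone 2 and 0.32 in clone 3, so the pooled SE can be too small here too. Timp3 rose by 3.24 (SE 0.69, adjusted p = 0.0168, 9.46-fold), more than 98.6% of all probes. The rise was 1.94 without shControl replicate 1, and its call ended without shTug1 clone 3 replicate 2 (3.13, adjusted p = 0.0638). By clone it was 3.40 in clone 2 (adjusted p = 0.0181) and 3.08 in clone 3, where it just missed the threshold (adjusted p = 0.0529).

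Timp2, which blocks metalloproteinases and at low levels also serves Mmp14 as the bridge that activates Mmp2, did not pass on either of its probes. Probe A_65_P12392 read 5.46 and 5.12 in clone 2, 6.35 and 6.09 in clone 3 and 5.09 and 4.88 in shControl, a difference of 0.77 on the log2 scale (SE 0.30, adjusted p = 0.0728). Probe A_52_P540219 read 5.34 and 6.32 in clone 2, 5.87 and 4.93 in clone 3 and 5.00 and 5.73 in shControl, with 0.26 (SE 0.44, adjusted p = 0.646). On A_65_P12392 the groups did not overlap and lay in the order clone 3, clone 2, shControl from high to low. On A_52_P540219 all groups overlapped, and the value was −0.11 without shControl replicate 1. A_65_P12392 did pass with quantile normalization (1.60, adjusted p = 0.0169), the deposited series values (1.61), normexp correction (0.95) and scaling to the median (1.06).

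Timp1, a secreted inhibitor that is weak against the membrane-bound metalloproteinases, overlapped between the groups. It read 4.01 and 4.34 in clone 2, 5.21 and 4.72 in clone 3 and 5.75 and 4.16 in shControl. The log2 fold change was −0.39 (SE 0.47, 95% interval −1.48 to 0.70, adjusted p = 0.511). Its direction turned with quantile normalization (0.45), the deposited series values (0.47) and without shControl replicate 1 (0.41), and the value was −1.18 without shControl replicate 2. The deposited intensities were 16998 and 19267 in clone 2, 21002 and 21885 in clone 3 and 17469 and 6508 in shControl, so no shTug1 array was dimmer than shControl replicate 2. The TIMP genes therefore differed in their readings, with Timp3 passing and Timp1 and Timp2 not, and differences between the genes were not tested.

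Mmp2, or gelatinase A, cleaves denatured collagen and type IV collagen and is secreted as a proenzyme. Its single probe read −4.47 and −4.10 in clone 2, −4.81 and −4.36 in clone 3 and −6.36 and −6.71 in shControl, where it was not well above background. The deposited intensities were 47.5 and 55.4 in clone 2, 20.3 and 40.5 in clone 3 and 3.93 and 3.48 in shControl. Mmp2 passed upward (adjusted p = 0.00954), but only a bound can be given, at least 1.02-fold in clone 2 and none for clone 3 or the mean. The call ended without shTug1 clone 3 replicate 2 (adjusted p = 0.0513), and the direction turned with normexp correction (−0.46, adjusted p = 0.0907). The offset of 50 added to every intensity there is larger than the deposited Mmp2 intensity on all but 1 array, and its part in this value was not tested. The data thus show Mmp2 detected on the 4 shTug1 arrays and not on the shControl arrays, near the limit of detection. That limit was unequal: the dimmest detected probe stood at −4.125 and −4.50 in shControl, against −5.39 to −5.91 on the shTug1 arrays. The shTug1 readings of Mmp2, from −4.81 to −4.10, lay around the shControl limits. Detection on the shTug1 arrays alone therefore shows no difference in Mmp2.

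Mmp14, the membrane-bound collagenase that activates Mmp2 at the cell surface, fell. It read −4.70 and −3.45 in clone 2, −4.57 and −4.64 in clone 3 and −2.88 and −3.16 in shControl. Both shControl arrays were above all shTug1 arrays, by 0.29 for the nearest pair. Mmp14 fell by 1.32 (SE 0.40, adjusted p = 0.0359, 2.50-fold), which is −0.75 relative to the median probe. The deposited intensities, 40.5 and 87.1 in clone 2, 23.9 and 33.3 in clone 3 and 44.0 and 40.8 in shControl, overlapped before scaling. Its call ended with quantile normalization (−1.06, adjusted p = 0.0693), the deposited series values (−1.02, adjusted p = 0.0611), scaling to the median (−1.03, adjusted p = 0.0727) and without any single array except shTug1 clone 2 replicate 2 (adjusted p from 0.0566 to 0.144).

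**Figure D3:**
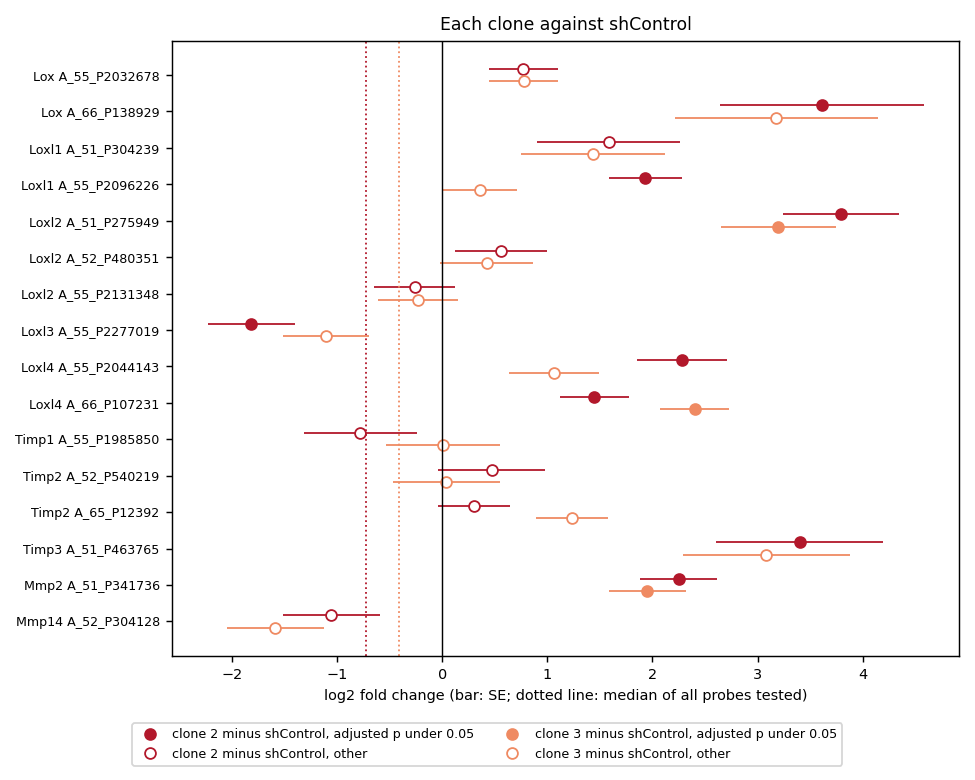
Log2 fold change (x axis, bars are SE) of shTug1 clone 2 and shTug1 clone 3 against shControl for the 16 probes (y axis), with filled points for an adjusted p under 0.05 and dotted lines at the median of all probes, −0.72 for clone 2 and −0.41 for clone 3. Values of Loxl2 A_51_P275949 and Mmp2 rest on shControl signals not above background and are not sizes of a change.

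By clone, 7 of the 16 probes rose and 1 fell in clone 2 against shControl, where 12.4% and 30.9% of all probes did. In clone 3, 3 rose and 0 fell, where 4.78% and 4.21% of all probes did. The 3 were Loxl4 A_66_P107231, Loxl2 A_51_P275949 and Mmp2, of which the last pair entered the test only through the shTug1 arrays. At an unadjusted p under 0.05 in limma, 10 of the 16 differed from shControl in clone 3. No share of all probes at that threshold is given here, so this count shows no excess. Among the 14 probes well above background on all 6 arrays, 5 rose and 1 fell in clone 2, and 1 rose and 0 fell in clone 3. The shares above cover all probes tested. Those for probes well above background on all 6 arrays are not given here by clone, so these counts cannot be set against a background. Both comparisons share the shControl arrays. The number of rises in clone 3 depended on the array left out, as did the number over all probes. Each such fit leaves 1 array in a group, so these numbers do not mark out the members. In the comparison of clone 3 with clone 2, on the same slide, none of the 16 passed in limma, where 1.86% of all probes passed. At an unadjusted p under 0.05 in limma there were 4, again without a share of all probes to set beside them. Those 4 were Loxl1 A_55_P2096226, both Loxl4 probes and Timp2 A_65_P12392, which was higher in clone 3 by 0.93 (95% interval 0.13 to 1.73). The intervals for the other 12 probes held 0 and reached differences of 0.77 or more in size on at least 1 side, so like readings of the clones are not shown. The width of these intervals rests on 1 spread per probe estimated from all 6 arrays, with shControl among them. The median SD was 0.51 in shControl, against 0.16 in clone 2 and 0.17 in clone 3. The intervals are thus no measure of the spread within the clones alone.

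Genes that process collagen before or beside the lysyl oxidases went both ways. Of 24 tested genes of collagen processing and crosslinking, 4 rose, 7 fell and 13 did not pass, with a median log2 fold change of −0.78. Over all probes 11.8% rose, 27.6% fell and the median was −0.57, so these counts are near the background. Here and for the lists below, that background counts every probe tested, while a list takes 1 probe per gene. With 1 probe per gene the median of the array was −0.64, and the shares called are not given here. P4hb, the protein disulfide isomerase that is also the beta subunit of prolyl 4-hydroxylase, rose by 3.50 (SE 0.52, adjusted p = 0.00954). It read 4.19 and 4.25 in clone 2, 3.56 and 4.02 in clone 3 and −0.47 and 1.48 in shControl, where the arrays were again far apart. P3h3, a prolyl 3-hydroxylase family member, rose by 2.14 and Colgalt1, the collagen galactosyltransferase, by 1.70. Bmp1, the procollagen C-proteinase that also cleaves the lysyl oxidase proenzyme, fell by 2.10 (SE 0.40, adjusted p = 0.0139) on its brightest probe, with −1.62 and −1.30 on the others. After quantile normalization the Bmp1 value was −1.28. Adamts14, a procollagen N-proteinase, fell by 1.93, although its other probe stood at −0.83 (adjusted p = 0.154). P3h1, a prolyl 3-hydroxylase, fell by 1.79 (−1.09 without shControl replicate 1), although a second P3h1 probe, well above background on 1 of 2 shControl arrays, stood at 3.83 (adjusted p = 0.0118).

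Of 25 other metalloproteinases tested, 2 rose, 8 fell and 15 did not pass, with a median of −0.47, again near the 11.8% and 27.6% of all probes. Adamts1, which cleaves proteoglycans, rose by 1.21 (SE 0.38, adjusted p = 0.0402), and its value without shControl replicate 2 was 0.79 (adjusted p = 0.111). Adamts4, an aggrecanase, fell by 1.42 and Adam33 by 1.41, and neither passed without shControl replicate 1 (−0.89 for Adamts4 and −0.91 for Adam33). The other Adam33 probe stood at −0.55 and did not pass (adjusted p = 0.211). Adam17, the sheddase inhibited by Timp3, fell by 1.38 (SE 0.31, adjusted p = 0.0181), with a second Adam17 probe at −1.50. Of 17 protease activators and inhibitors, 3 rose, 4 fell and 10 did not pass, with a median of −0.58, near the 11.8%, 27.6% and −0.57 of all probes. Plat, the tissue plasminogen activator, rose by 3.51 (SE 0.82, adjusted p = 0.0198), with shControl arrays 3.47 apart and a value of 1.78 without shControl replicate 1. Lrp1, the endocytic receptor that clears proteases, rose by 0.97, and its value with normexp correction was 0.51 (adjusted p = 0.0623). Furin, the convertase that activates Mmp14, fell by 1.19 (SE 0.31, adjusted p = 0.0256) and the matricellular gene Sparc by 0.92. With quantile normalization Furin stood at −0.37 (adjusted p = 0.205) and Sparc turned to 0.28 (adjusted p = 0.317). After quantile normalization 2 of these 17 rose and 0 fell.

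Of 27 genes of elastic fibres and other matrix, 4 rose, 4 fell and 19 did not pass, with a median of −0.36. Over all probes 11.8% rose and 27.6% fell. Substrates of the lysyl oxidases are among these genes, and so are type IV collagen genes. The type IV collagen genes Col4a1 and Col4a2, which lie head to head in the genome, rose by 1.55 (SE 0.40, adjusted p = 0.0243) and 1.47 (SE 0.35, adjusted p = 0.02). Neither passed without shControl replicate 1. Mfap5, a microfibril protein, rose by 1.11 (0.70 without shControl replicate 2). Ltbp2, a microfibril-binding protein, fell by 1.51, Efemp2 (fibulin-4), which brings lysyl oxidase to elastic fibres, by 1.47 and Col1a2, the alpha 2 chain of type I collagen, by 1.15. Efemp2 stood at −0.62 with quantile normalization (adjusted p = 0.122) and at −0.78 without shControl replicate 1 (adjusted p = 0.0883), and Col1a2 did not pass in either. After quantile normalization 5 of the 27 rose and 1 fell. Leaving out an array changed the number of calls over all probes as well, so the counts that follow do not mark out these lists. Without shTug1 clone 3 replicate 1, 5 genes of collagen processing and 0 of the other 3 lists passed. Without shTug1 clone 3 replicate 2, 1 gene of collagen processing and 1 metalloproteinase passed, both upward, and of the genes named from these lists P4hb alone kept its call.

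Other genes followed the same pattern over the 6 arrays as the members whose brightest probe passed and was well above background on all 6 arrays, by Pearson correlation of log2 signals over 12374 other genes well above background on all arrays, as a description. For Lox these were Twsg1 (0.999) and Stt3b (0.998), with 57 genes above 0.99. For Loxl4 they were Fendrr (0.999) and Trib1 (0.997), with 20 above 0.99, and for Timp3 they were Gins2 (0.999) and Abhd12 (0.998), with 18. Loxl3 had 888 genes above 0.99, led by Mettl26 and Bckdhb (both 1.000), so its pattern was common on these arrays. Mmp14 had 0, and its nearest were Gm9958 (0.985) and Cpt1b (0.977). All these values share the same libraries and the split between the slides.

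**Figure D4:**
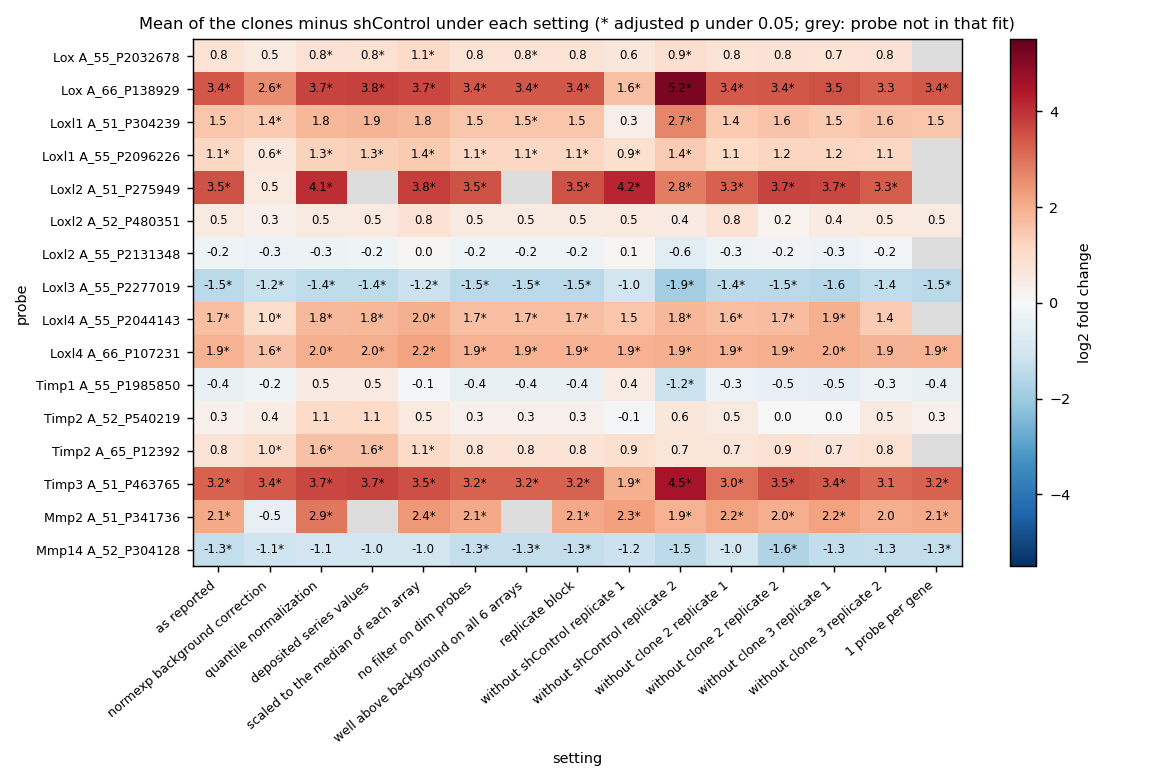
Log2 fold change of the mean of the clones against shControl for the 16 probes (rows) under each setting (columns), with colour and number for the value, an asterisk for an adjusted p under 0.05 and grey where the probe was not in that fit. Timp3, both Loxl4 probes, both Lox probes and both Loxl1 probes keep a positive value in every setting shown, and Loxl3 and Mmp14 a negative one.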

How the data were processed

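The authors' deposited scanner files hold a processed intensity per spot and median signal and background intensities, written by Feature Extraction (Agilent) 11.0.1.1, per the file headers and the submitters' processing notes. A deposited value table holds log2 values of 19819 probes (14 of the 16 members'). Its columns followed their own arrays (r from 0.998 to 1.000, medians 8.98 to 9.13), so it is log2 and not centred, with a normalization not given in the sources used here.

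Symbols were matched by unversioned accession to a RefSeq table (GRCm38.p6), which named 27234 of 39429 probes. Processed intensities were divided by the 75th percentile of each array's gene spots and taken to log2. Control spots and outlier-marked spots did not enter, and repeated spots were averaged. A probe was tested if both replicates of 1 group or more stood well above background (25545, after 14 were lost to outlier marks). No spot was saturated, and the precision is limited by the number of arrays. limma 3.58.1 in R 4.3.3 fitted 3 group means to all 6 arrays (3 residual and 4.61 prior degrees of freedom), two-sided, and was tested on simulated data. Those data had the same SD in every group, so they do not cover the unequal spread of the real groups. An exact permutation of 4 against 2 arrays cannot go below 0.0667, so none was used. A fit that left out an array kept 1 array in that group. The spread of that group then did not enter, so calls in such fits do not take it into account. All probes of a member were kept. For the other lists the brightest tested probe stood for a gene. The rule named every member probe, Tug1, up to 3 rises and 3 falls per list among genes measured on all 6 arrays (1 of them is not reported here), and 2 pattern neighbours per passing member detected on all 6 arrays. Members and lists were chosen with earlier results of these data known. Normexp, with an offset of 50, used the median spot signals, the files holding no mean signal.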

Additional observations from a re-analysis of the deposited data

How the results depend on the processing

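Of 856 values of the 16 probes over the alternatives and comparisons, 735 kept their direction and side of the threshold, 35 lost the call, 50 gained one and 36 turned direction, 3 of them called before (Mmp2 with normexp). With the filter on all 6 arrays, 1939 of all probes rose for the mean of the clones, 1805 rose in clone 2, 2095 fell in clone 3, 6 rose and 38 fell between the clones, 1 member fell in clone 3 and 1 metalloproteinase rose. With 1 probe per gene, 4 members rose for the mean and 4 in clone 2, and 198 probes fell between the clones. With normexp, 14541 probes fell for the mean, 15042 in clone 2 and 6143 in clone 3, 51 rose between the clones, members fell in 2, 2 and 1 cases in clone 2, in clone 3 and between the clones, the lists had 13, 14, 9 and 15 falls, and metalloproteinases and elastic fibre genes 1 and 2 rises. With quantile normalization, 3674 fell for the mean and 3859 in clone 2, 29 rose and 115 fell between the clones, 1 member fell, the collagen, protease and elastic fibre lists had 3, 0 and 1 falls and 1 metalloproteinase rose. With the deposited series values, 3843 fell for the mean and 4084 in clone 2, 0 rose and 0 fell between the clones in limma, 1 member fell, those lists had 4, 0 and 2 falls and 1 metalloproteinase rose. With scaling to the median, 4653 fell for the mean and 716 in clone 3, 1 member fell, and metalloproteinases, protease and elastic fibre lists had 4, 1 and 1 falls. With no filter, 500 rose and 478 fell in clone 3, 56 rose and 204 fell between the clones, 1 metalloproteinase and 2 elastic fibre genes rose and 2 protease genes fell. With the replicate block, 5 members rose in clone 3, 592 probes fell between the clones and 2 protease genes fell, and 7 members rose for the mean as without it. The labels give only a shared number, and same-numbered arrays deviated together at −0.034, 0.124 and −0.091.

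Leaving out each array in turn gave 488 to 4328 rises and 230 to 12207 falls for the mean, 1903 to 4604 and 2223 to 12933 in clone 2, 0 to 3637 and 0 to 9468 in clone 3 and 0 to 567 and 0 to 669 between the clones. Members rose in 1 to 9 and fell in 0 to 2 cases for the mean, fell in 0 to 2 in clone 2, rose in 0 to 8 and fell in 0 to 1 in clone 3 and fell in 0 to 1 between the clones. Rises and falls were 1 to 4 and 0 to 14 for collagen processing, 0 to 2 and 0 to 15 for metalloproteinases, 0 to 3 and 0 to 5 for protease genes and 0 to 6 and 0 to 10 for elastic fibre genes. Without shTug1 clone 3 replicate 2, the 1 member that rose was Loxl2 A_51_P275949.

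Directions turned for Loxl2 A_55_P2131348 with scaling to the median (0.045 for the mean, 0.070 in clone 2, 0.021 in clone 3, −0.049 between the clones) and over left-out arrays (−0.61 to 0.11, −0.62 to 0.094, −0.59 to 0.13 and −0.14 to 0.21). They turned for Timp1 with quantile normalization (0.45, and 0.31 in clone 2), the series values (0.47 and 0.32) and left-out arrays (−1.18 to 0.41, −1.57 to 0.014 in clone 2 and −0.79 to 0.80 in clone 3). Mmp2 with normexp gave −0.46, −0.50, −0.41 and 0.086. Loxl1 A_55_P2096226 in clone 3 gave −0.038 with normexp, and between the clones Lox A_55_P2032678 gave −0.079 with scaling to the median and −0.044 to 0.047 over left-out arrays. Mmp14 between the clones gave 0.0026 with normexp and −1.16 to 0.10 over left-out arrays. Over left-out arrays Timp2 A_52_P540219 ran from −0.11 to 0.62, −0.018 to 0.96 in clone 2, −0.43 to 0.51 in clone 3 and −0.92 to 0.057 between the clones. Loxl2 A_52_P480351 ran from −0.014 to 1.13 in clone 2 and −0.71 to 0.43 between the clones, and Timp3 from −0.85 to 0.21 between the clones. The cause of these changes was not tested. Signal over background limits Mmp2 and Loxl2 A_51_P275949 to bounds.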
